A study of Mus musculus with 40 samples.

Results

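The comparison described here sets B cell-biased lymphoid progenitors (BLPs) against haematopoietic stem cells (HSCs) in mice that lack Mbd3, that is, the last against the first of 4 bone marrow populations sorted along the path from stem cell to B lineage. Its members are 10 of the 40 libraries of the series, 5 from Mbd3del BLPs and 5 from Mbd3del HSCs, and each of 5 mice gave a library of both populations, so every comparison was paired by mouse. The Mbd3del mice had the genotype Mbd3_Del/Del on the strain C57BL6/129Ola, were 46 to 51 days old and comprised 3 males and 2 females. The marrow came from femurs and tibiae. Per the labels, the BLP gate was IL-7Ra+ Ly6D+ Flt3hi B220- among Lin- Sca-1+ c-Kit+ cells and the HSC gate was CD45+ CD150+ CD48- EPCR+. For each library, cells of 1 mouse were pooled and processed by smart-seq2, which amplifies whole transcripts from little RNA. The sample labels give 100 cells for a BLP pool and 150 for an HSC pool, whereas the series' design text gives these numbers the other way round. The sources used here do not name the Cre driver. The control group, used only where it is named, comprised the same 2 populations from 5 mice of the genotype Mbd3_Flox/Flox, in which the Mbd3 alleles carry recombination sites but are intact. The control mice were also 46 to 51 days old and comprised 3 males and 2 females. The populations between the ends, from both genotypes, are used only where levels along the path are given.

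HSCs are rare, mostly quiescent cells that renew themselves and give rise to all blood lineages. On the lymphoid path they pass through lymphoid-primed multipotent progenitors (LMPPs), which have lost megakaryocyte and erythroid potential, and all-lymphoid progenitors (ALPs), which respond to interleukin 7. BLPs differ from ALPs by the surface protein Ly6D and are biased towards the B lineage, which is set by the transcription factors E2A, EBF1, FOXO1 and PAX5. Mbd3 is a subunit of NuRD, a complex that joins nucleosome remodelling and histone deacetylation at enhancers and promoters.

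Mbd3 (chromosome 10, 80392539 to 80399550, minus strand, GRCm38) was close to absent in both populations of the Mbd3del mice. Its level in CPM, which are counts scaled to a common total of gene counts per library, in mouse10360, mouse10361, mouse10365, mouse10376 and mouse10384 in this order, was 0, 1.41, 0.193, 0.488 and 0 in BLPs, against 0.169, 0, 0.153, 0.205 and 0 in HSCs. These levels rest on 10 counts in all BLP libraries and 3 counts in all HSC libraries, too few for a test. In control mice Mbd3 averaged 45.7 CPM in BLPs and 15.7 CPM in HSCs.

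Of 9 gate markers 4 were higher in BLPs, 3 were lower and 2 were not called. Those that separate the 2 gates followed the sort. Ly6d had 13494, 6737, 6211, 13718 and 9351 CPM in BLPs, against 13.1, 7.73, 29.5, 22.3 and 10.1 CPM in HSCs. Il7r, which encodes the interleukin 7 receptor, averaged 597 ± 114 CPM in BLPs and 2.05 ± 0.402 CPM in HSCs (SD, n = 5 each, as throughout). Flt3, a cytokine receptor of lymphoid-primed cells, averaged 428 ± 112 CPM in BLPs and 33.4 ± 19.5 CPM in HSCs. Procr, which encodes EPCR, averaged 0.108 ± 0.169 CPM in BLPs and 159.7 ± 49.8 CPM in HSCs, and Slamf1, which encodes CD150, averaged 0.0612 ± 0.0838 CPM in BLPs and 99.2 ± 37.9 CPM in HSCs. The sort set these differences, so they check the labels and are no finding. Cd48, absent by the HSC gate, averaged 535 ± 98.9 CPM in BLPs and 4.35 ± 4.04 CPM in HSCs. Kit, which encodes the c-Kit of the BLP gate, was lower in BLPs, at 60.7 ± 27.6 CPM, against 670 ± 167 CPM in HSCs. Ly6a, for Sca-1, and Ptprc, for CD45, were not called, with log2 changes of -0.76 ± 0.26 and 0.44 ± 0.19 (SE). In the 10 libraries the transcripts also matched the labelled sex of each mouse.

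The libraries held 2974305 to 8201998 gene counts. BLP libraries correlated with each other at r = 0.842 to 0.892 over 10408 genes and with HSC libraries at r = 0.538 to 0.665. Among HSC libraries those of mouse10365 and mouse10384 stood apart. They correlated at r = 0.882 with each other and at 0.770 to 0.819 with the other 3 HSC libraries, which correlated at 0.858 to 0.878 among themselves. They had 15442 and 15249 detected genes, against 13488 to 14261 in the other 3. The HSC library of mouse10365 also held 1157 CPM of the neutrophil gene S100a8, against 0.360 to 17.5 CPM in the other HSC libraries, and 5922 CPM of immediate early response genes, against 323 to 1279 CPM. List counts are therefore also given without mouse10365 and mouse10384 where they differ. In all 5 mice fewer genes were detected in the BLP library, with 13633 ± 382 in BLPs and 14536 ± 805 in HSCs, which had p = 0.0625 in a two-sided exact permutation test paired by mouse, the smallest p that 5 pairs allow. The gap was small in mouse10360 (14217 in BLPs against 14261 in HSCs) and mouse10361 (13356 against 13488). It was larger in mouse10376 (13234 against 14240), mouse10365 (13650 against 15442) and mouse10384 (13707 against 15249). The labelled number of cells per pool differs between the populations, so its part cannot be told apart. In bulk pools, fewer cells of a type and less RNA per cell cannot be told apart either.

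Between the ends of the path without Mbd3, 1018 of 11258 tested genes were higher in BLPs (9.04%) and 1016 were lower (9.02%) at an adjusted p under 0.05, in edgeR's quasi-likelihood test with the mouse as a block. These shares are the background for each list count below. The changes were large. At least 2-fold differences were fitted for 866 of the higher (7.69% of tested genes) and 989 of the lower genes (8.78%), at least 4-fold for 544 (4.83%) and 735 (6.53%), and at least 32-fold for 247 and 446. In 1682 of the 2034 called genes the 5 BLP libraries did not overlap with the 5 HSC libraries. Over all tested genes, 7.65% had all BLP libraries above all HSC libraries and 11.8% had them below. No count at all was found in HSCs for 29 of the genes called higher, and none in BLPs for 100 of those called lower. The genes called higher took 27.1% to 30.3% of the gene counts of a BLP library and 9.54% to 11.3% of an HSC library. The genes called lower took 2.36% to 2.65% of a BLP library and 11.5% to 13.03% of an HSC library.

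Without mouse10365 and mouse10384, 572 of 11278 genes were called higher (5.07%) and 535 lower (4.74%), which are the background for list counts without these mice. Of 2027 earlier calls tested there, 986 were called again and all 2027 kept their sign. With library totals as the only scaling, the split was 801 higher (7.11%) and 1206 lower (10.7%), and the median log2 change of all tested genes was -0.31 there, against -0.10 with TMM scaling.

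**Figure D1:**
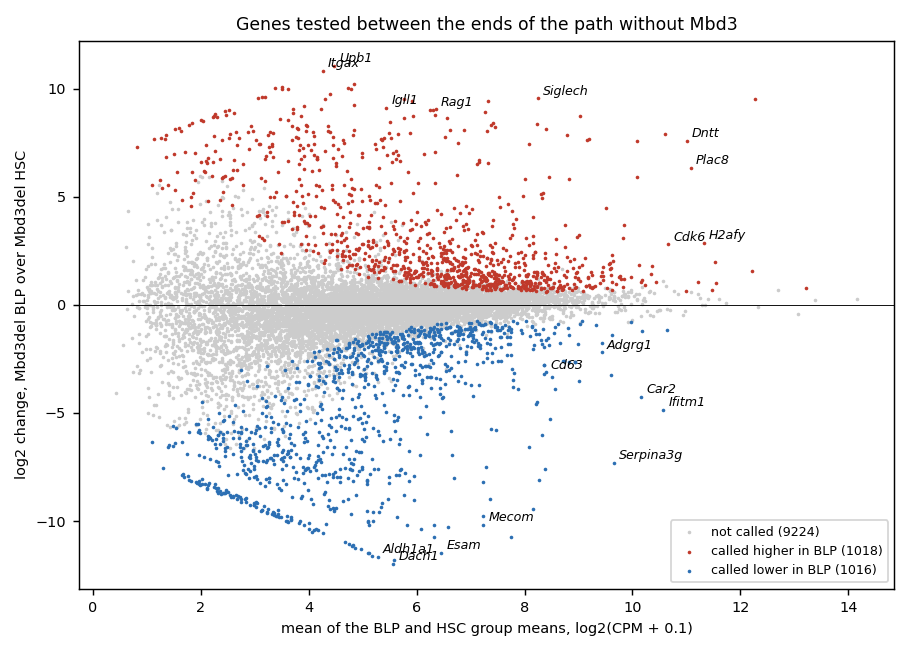
Each point is 1 of 11258 tested genes, with the mean of the BLP and HSC group means on the x axis (log2(CPM + 0.1)) and the log2 change, Mbd3del BLP over Mbd3del HSC, on the y axis. Red points were called higher in BLPs (1018), blue points lower (1016), and the 2 clouds reach beyond a log2 change of 10 in either direction.

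The transcription regulators of the stem cell state were lower in BLPs as a group. Of 24 such genes, all tested, 19 fell, none rose, and the median log2 change was -3.74, against -0.10 over all genes tested. Without mouse10365 and mouse10384, 13 fell. Mecom, which encodes the zinc finger protein EVI1 that HSCs need for self-renewal, had 0, 0.564, 0, 0.244 and 0.308 CPM in BLPs, against 245, 313, 331, 260.1 and 356 CPM in HSCs (log2 change -10.19 ± 0.51 SE, adjusted p = 3.72e-06). Hlf, a PAR bZIP factor that marks HSCs, had 6.82, 0, 0.193, 19.9 and 1.08 CPM in BLPs, against 470.4, 355, 932, 567 and 964 CPM in HSCs (log2 change -7.61 ± 1.01, adjusted p = 0.00102). Both were low in every BLP library and high in every HSC library, but the BLP libraries differed among themselves in Hlf, with mouse10376 highest. Gata2, a GATA factor of stem and progenitor cells, left 3 counts in all BLP libraries together, which put its level in HSCs 2089.6 times above that in BLPs (exact 95% counting interval of the ratio 715 to 10136). Mllt3, a reader of histone acetylation that sustains HSCs, averaged 18.5 ± 13.7 CPM in BLPs and 689 ± 54.6 CPM in HSCs.

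Some regulators fell by less. Meis1, a homeodomain partner of Hox proteins, averaged 78.9 ± 34.6 CPM in BLPs and 575 ± 41.6 CPM in HSCs (log2 change -2.78 ± 0.31, adjusted p = 0.000432). Lmo2, an adaptor of stem cell transcription complexes, had 61.1, 67.9, 76.4, 65.2 and 72.6 CPM in BLPs, against 849.9, 626, 1415, 567 and 1324 CPM in HSCs. The high Lmo2 values in HSCs are those of mouse10365 and mouse10384, and the BLP libraries lie within a narrow band below all of them. Runx1, needed to form HSCs and also active in lymphocytes, was not called at a log2 change of -0.47 ± 0.20.

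Receptors, adhesion molecules and other genes known from HSCs and their niche were lower as well. Of 22 genes of this list, 20 fell and none rose, with a median log2 change of -5.86, and 14 fell without mouse10365 and mouse10384. Tek, which encodes the angiopoietin receptor TIE2, averaged 0.0612 ± 0.0838 CPM in BLPs and 72.5 ± 30.5 CPM in HSCs. Its ligand gene Angpt1 kept a sizeable level, with 70.6, 82.0, 92.8, 115 and 173 CPM in BLPs, against 675, 897, 554, 979.6 and 537 CPM in HSCs (log2 change -2.61 ± 0.33, adjusted p = 0.000799). Apoe, an apolipoprotein abundant in HSCs, averaged 8.73 ± 4.30 CPM in BLPs and 635 ± 239 CPM in HSCs. Vwf, which marks platelet-biased HSCs and endothelium, was read once in all BLP libraries.

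Of 18 megakaryocyte and platelet genes, 10 were tested, 5 fell, 1 rose and 4 did not pass the test. Without mouse10365 and mouse10384, 3 fell and 1 rose. Pf4, a platelet chemokine, averaged 0.581 ± 1.15 CPM in BLPs and 69.3 ± 29.3 CPM in HSCs (log2 change -7.83 ± 1.16, adjusted p = 0.00183). The gene that rose was Plek, a protein kinase C substrate of platelets and leukocytes. Only 3 of 15 erythroid genes passed the filter on low counts, of which 2 fell and 1 rose. Car2, which encodes a carbonic anhydrase, had 34.0, 161, 109.6, 100.3 and 124 CPM in BLPs, against 2448, 2495, 1495, 2929.9 and 1599.7 CPM in HSCs. Hbb-bt, a beta-globin gene whose near-identical copies share reads, also fell. Tfrc, the transferrin receptor that dividing cells of many types use, rose instead, to 1385 ± 225 CPM in BLPs, against 72.7 ± 17.5 CPM in HSCs (log2 change 4.48 ± 0.25, adjusted p = 7.09e-06).

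**Figure D2:**
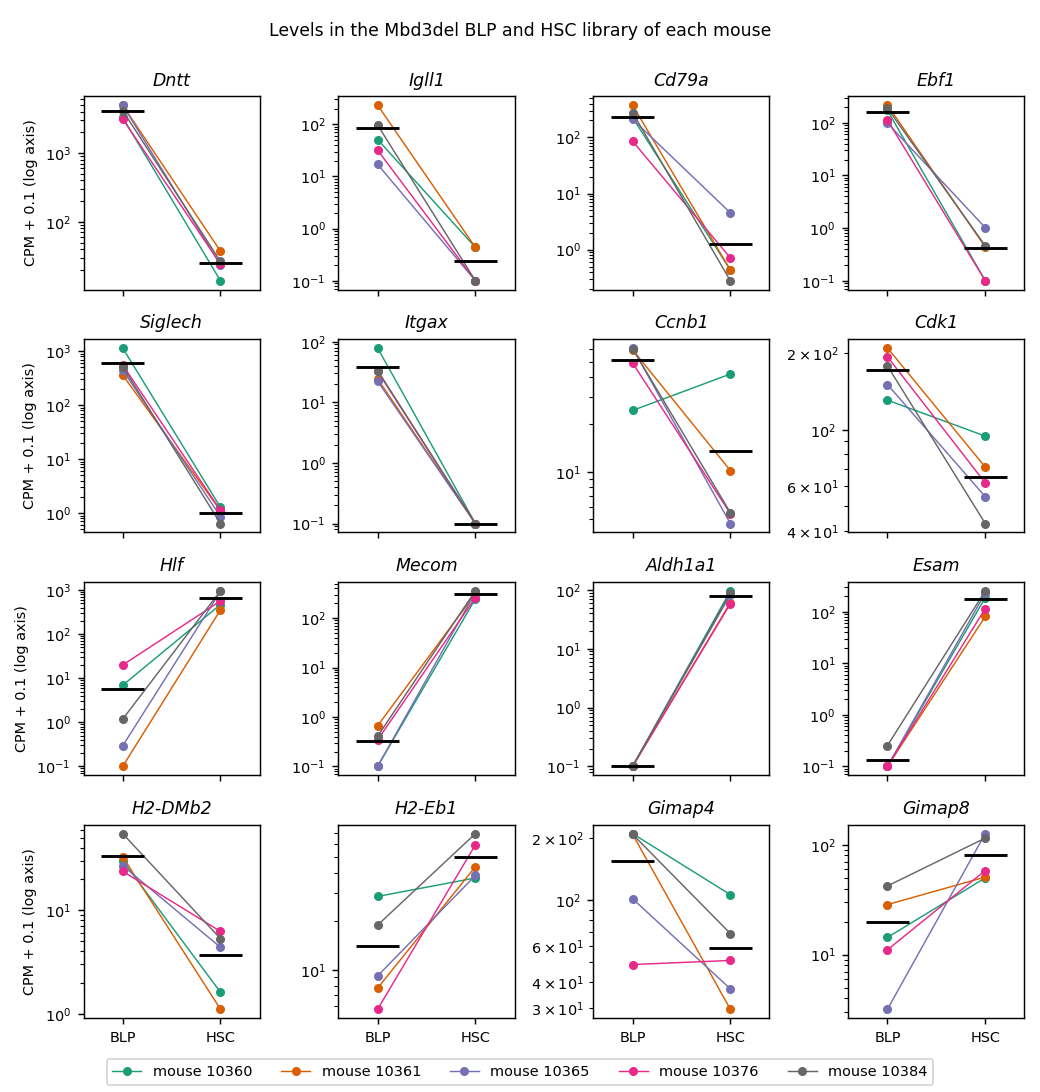
CPM + 0.1 on log axes for 16 genes in the BLP (left) and HSC (right) library of each Mbd3del mouse, with a line joining the libraries of a mouse and a bar at the group mean. B lineage and dendritic cell genes in the upper rows drop in every mouse towards HSCs, stem cell genes climb in every mouse, and Ccnb1 and Gimap4 run against the other mice in 1 mouse each.

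The genes of early B lineage specification were higher in BLPs, but only part of the list moved. Of 20 B cell transcription factor genes 16 were tested, 7 rose and none fell, with a median log2 change of 1.31, and 6 rose without mouse10365 and mouse10384. Ebf1, the factor that opens the B cell programme, had 171, 215, 98.2, 112 and 188 CPM in BLPs, against 0, 0.336, 0.918, 0 and 0.360 CPM in HSCs (log2 change 9.00 ± 0.67, adjusted p = 3.86e-05). Irf8, an interferon regulatory factor of B cells, monocytes and dendritic cells, averaged 1141 ± 267 CPM in BLPs and 7.52 ± 5.16 CPM in HSCs. Ikzf1, which encodes the lymphoid factor Ikaros, averaged 552 ± 55.7 CPM in BLPs and 199 ± 32.1 CPM in HSCs (log2 change 1.69 ± 0.18, adjusted p = 0.000256). Foxo1, a factor upstream of Il7r and Rag expression, averaged 125 ± 55.7 CPM in BLPs and 59.4 ± 22.7 CPM in HSCs, with overlapping libraries and an adjusted p of 0.036 that rose to between 0.0671 and 0.114 without mouse10360, mouse10361, mouse10376 or mouse10384. Unlike Ikzf1, some other factors already active in HSCs were not called: Myb had a log2 change of 0.35 ± 0.18, Spi1 0.36 ± 0.32 and Tcf3, which encodes E2A, 0.60 ± 0.57. Pax5, which commits cells to the B lineage, was too low to be tested. It had 16.5, 8.74, 1.35, 0.975 and 13.6 CPM in BLPs, and a single count was found in all HSC libraries.

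The machinery of V(D)J recombination, which joins immunoglobulin gene segments, had 6 of 12 tested genes higher and none lower, with 5 higher without mouse10365 and mouse10384 and 1 lower with library totals as the only scaling. Dntt, the terminal transferase that adds nucleotides at the joints, had 3285, 4950.4, 4940.3, 3116 and 4118 CPM in BLPs, against 13.8, 37.3, 23.6, 24.2 and 26.5 CPM in HSCs (log2 change 7.59 ± 0.27, adjusted p = 1.03e-06). Rag1 and Rag2, which cut the DNA, lie side by side on chromosome 2. Rag1 averaged 163 ± 57.6 CPM in BLPs and 0.344 ± 0.221 CPM in HSCs (log2 change 9.05 ± 0.47), and Rag2 had 229.8 to 438 CPM in BLPs, against 0.205 to 2.52 CPM in HSCs (log2 change 8.44 ± 0.38). Xrcc6, the Ku70 subunit of the end joining complex, rose to 888 ± 146 CPM in BLPs, against 118 ± 26.1 CPM in HSCs. The gene of its partner, Xrcc5, did not pass the test at a log2 change of -1.11 ± 0.38 (adjusted p = 0.0773). All 8 immunoglobulin variable segments that were tested rose, with a median log2 change of 7.35 as fitted and 6.13 where segments with no HSC count were set to a floor of 3 counts over the 5 libraries. All variable segments together had only 0.72 to 4.71 CPM in an HSC library. A segment could therefore pass the filter on low counts only through its BLP counts, so the direction was set by the filter and is no finding. Of these segments 2 were called without mouse10365 and mouse10384.

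The pre-B cell receptor, in which a heavy chain pairs with the surrogate light chain made from Vpreb and Igll1, was higher in BLPs in most of its parts. Of 20 genes of the receptor and its signalling 16 were tested, 12 rose and none fell, and the median log2 change was 7.13. Members such as Igll1 and Vpreb1, at means of 0.135 and 0.556 CPM in HSCs, could pass the filter on low counts only through BLPs. Their direction was set by the filter, and they add to this count and median. Without mouse10365 and mouse10384, 11 rose. Igll1 had 50.9, 233, 17.0, 31.8 and 96.7 CPM in BLPs, against 0.337, 0.336, 0, 0 and 0 CPM in HSCs. Only 3 counts of Igll1 were found in all HSC libraries, and the ratio of the levels was 615 (exact 95% counting interval 210.1 to 2983). The lowest and the highest BLP library, of mouse10365 and mouse10361, lie far apart. Vpreb1 had 38.7, 67.4, 19.1, 47.9 and 42.9 CPM in BLPs, against 0, 1.68, 0.306, 0.615 and 0.180 CPM in HSCs (log2 change 6.80 ± 0.81, adjusted p = 0.000591). It has a close copy, Vpreb2, and reads between the copies may be divided unevenly. Cd79a, the signalling chain of the receptor, had 225, 375, 211, 85.6 and 277 CPM in BLPs, against 0.337, 0.336, 4.44, 0.615 and 0.180 CPM in HSCs (log2 change 8.11 ± 0.71, adjusted p = 8.9e-05). Ighm, the heavy chain constant gene, averaged 3112 ± 812 CPM in BLPs and 15.1 ± 4.65 CPM in HSCs. Blnk, the adaptor that links the receptor to its kinases, averaged 673 ± 88.9 CPM in BLPs and 3.17 ± 2.49 CPM in HSCs. The kinase gene Syk had the smaller log2 change of 1.08 ± 0.29, with an adjusted p of 0.0324 that rose to between 0.0593 and 0.101 without mouse10360, mouse10361, mouse10365 or mouse10376.

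Most promoters of this list held a short motif. The E-box letters CACCTG, or CAGGTG on the other strand, which E2A-type factors can bind, were present in the 250 bases before the start in 9 of 12 promoters of 11 list genes that matched RefSeq (75%). They were present in 14.9% of 11121 promoters of all tested genes and in 17.2% of all 32851 promoters of the table. The motifs were chosen with the results of the lists known, and a match is a description of letters, not a binding site. The 3 promoters below are from RefSeq (GRCm38.p6), 5′ to 3′ in the direction of the gene and ending at the base before its RefSeq start, with the E-box letters in capitals, and they are shown because their genes make the receptor described above. They lie at chr16:16869256-16869505 (minus strand, Vpreb1), chr16:16863986-16864235 (minus strand, Igll1) and chr7:24897247-24897496 (plus strand, Cd79a).
Vpreb1: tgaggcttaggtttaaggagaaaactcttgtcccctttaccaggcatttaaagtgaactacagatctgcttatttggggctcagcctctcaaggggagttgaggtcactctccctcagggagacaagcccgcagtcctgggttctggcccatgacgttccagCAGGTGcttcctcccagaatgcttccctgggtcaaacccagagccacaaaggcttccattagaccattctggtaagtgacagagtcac
Igll1: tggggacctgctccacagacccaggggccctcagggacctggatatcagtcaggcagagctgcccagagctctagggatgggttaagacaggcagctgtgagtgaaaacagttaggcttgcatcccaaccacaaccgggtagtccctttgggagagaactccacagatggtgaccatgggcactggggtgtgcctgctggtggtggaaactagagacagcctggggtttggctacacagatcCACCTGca
Cd79a: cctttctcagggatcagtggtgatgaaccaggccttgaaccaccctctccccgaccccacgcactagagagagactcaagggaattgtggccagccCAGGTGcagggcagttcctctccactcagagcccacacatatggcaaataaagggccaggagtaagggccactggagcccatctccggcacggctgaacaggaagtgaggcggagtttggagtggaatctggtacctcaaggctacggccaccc
The match begins 88 bases before the start in Vpreb1, 8 in Igll1 and 154 in Cd79a.

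Genes of plasmacytoid dendritic cells, interferon-producing cells that can arise from lymphoid progenitors, were higher in BLPs as a group. Of 18 such genes 15 were tested, 13 rose and none fell, with a median log2 change of 6.34, and 11 rose without mouse10365 and mouse10384. Siglech, a surface lectin that marks these cells, had 1146, 361, 447, 554 and 519.7 CPM in BLPs, against 1.18, 1.01, 0.765, 1.02 and 0.540 CPM in HSCs (log2 change 9.55 ± 0.34, adjusted p = 1.03e-06). Cox6a2, a cytochrome c oxidase subunit found in plasmacytoid dendritic cells and muscle, had 1333, 652, 752, 1472 and 999 CPM in BLPs, against 2.53, 2.69, 3.37, 3.28 and 1.80 CPM in HSCs (log2 change 8.74 ± 0.34). Plac8 averaged 4263 ± 848 CPM in BLPs and 61.4 ± 16.0 CPM in HSCs and was among the most abundant genes that rose. Tcf4, the E protein that directs plasmacytoid dendritic cell fate, rose less, to 554 ± 209 CPM in BLPs, against 211 ± 65.5 CPM in HSCs (log2 change 1.57 ± 0.32, adjusted p = 0.00872), and had an adjusted p of 0.0720 without mouse10365 and mouse10384. The summed level of the list was 7140.5 to 11917 CPM in BLPs and 527 to 739.5 CPM in HSCs, and 1 of its genes had no count in BLPs. Each library is a pool, so whether the same cells carried these and the B lineage transcripts was not tested.

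Inhibitors of E proteins changed in opposite directions. Id1 had no count in BLPs, against 11.6, 21.9, 17.3, 13.9 and 5.94 CPM in HSCs, at least 135-fold lower when set against the floor of 3 counts over the 5 BLP libraries. Id3 had 61.6, 6.48, 4.63, 38.9 and 25.4 CPM in BLPs, against 0, 2.02, 0, 0 and 0 CPM in HSCs (log2 change 7.72 ± 1.69, adjusted p = 0.0132), and Id2 rose to 74.1 ± 9.76 CPM in BLPs, against 34.1 ± 13.6 CPM in HSCs. Neither rise was called without mouse10365 and mouse10384 (adjusted p = 0.104 for Id3 and 0.152 for Id2). The Id2 call was also lost without mouse10360, mouse10365, mouse10376 or mouse10384 (adjusted p = 0.0647 to 0.0783), and the Id3 call without mouse10360 (adjusted p = 0.0502).

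Of 22 T lineage and Notch pathway genes 12 were tested, 8 rose and 1 fell, with and without mouse10365 and mouse10384. Cd7, a surface protein of early lymphoid cells, had 532, 206, 195, 311 and 282 CPM in BLPs, against 0.506, 0.336, 1.84, 0.615 and 0.180 CPM in HSCs (log2 change 8.91 ± 0.55, adjusted p = 1.19e-05). Ccr7 and Ccr9, chemokine receptors that guide progenitors to lymphoid organs and thymus, averaged 91.4 ± 19.3 and 62.8 ± 42.8 CPM in BLPs, against 0.480 ± 0.292 and 0.574 ± 0.411 CPM in HSCs. Lck, a kinase of lymphocyte receptors, averaged 224 ± 13.1 CPM in BLPs and 23.5 ± 8.61 CPM in HSCs. Notch1 rose by 3.01 ± 0.65 on the log2 scale. The gene that fell was Gata3, a factor of T cells and also of HSCs, with 2.37 ± 3.03 CPM in BLPs and 60.9 ± 36.5 CPM in HSCs (log2 change -5.47 ± 1.11, adjusted p = 0.009). Among defining T cell genes, Tcf7 averaged 0.18 CPM in BLPs and 0.03 CPM in HSCs, and Cd3g had no count in either. Cd247, the zeta chain of the T cell receptor complex and of NK cell receptors, instead rose to 72.6 ± 18.4 CPM in BLPs, against 4.04 ± 3.57 CPM in HSCs.

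Myeloid genes divided into a group that rose and a group that fell. Of 20 neutrophil granule and myeloid priming genes 11 were tested, 6 rose and 3 fell, and 4 rose and 3 fell without mouse10365 and mouse10384. Mpo, the myeloperoxidase of granules and an early sign of myeloid priming, had 127, 421, 488, 209 and 169.8 CPM in BLPs, against 1.85, 4.03, 2.91, 2.25 and 3.06 CPM in HSCs (log2 change 6.71 ± 0.33, adjusted p = 3.29e-06). Lyz2, a lysozyme gene of macrophages and neutrophils, had 69.0, 174, 80.7, 125 and 112 CPM in BLPs, against 707, 965, 490.4, 1089 and 724 CPM in HSCs (log2 change -2.64 ± 0.22, adjusted p = 6.77e-05). Prtn3, a serine protease of the same granules as Mpo, also fell, and so did the receptor gene Csf3r. The libraries of each population overlapped with the other in none of these 4 genes. The summed level of the list was 530.2 to 854 CPM in BLPs and 1101 to 2360.3 CPM in HSCs, with the highest HSC sum in mouse10365.

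The genes of DNA synthesis and mitosis were higher in BLPs as a group. All 28 S phase genes and all 26 mitosis genes had a positive log2 change. Of the S phase genes 21 rose and none fell, with a median log2 change of 2.03, and of the mitosis genes 17 rose and none fell, with a median of 3.41. Without mouse10365 and mouse10384, 22 S phase genes and 10 mitosis genes rose. Rrm2, the regulated subunit of ribonucleotide reductase, had 691, 699, 631, 421 and 619 CPM in BLPs, against 91.9, 35.3, 5.35, 28.9 and 2.16 CPM in HSCs (log2 change 5.19 ± 0.81, adjusted p = 0.00247). Mcm4, a subunit of the replicative helicase, averaged 622 ± 62.6 CPM in BLPs and 149 ± 55.3 CPM in HSCs (log2 change 2.34 ± 0.27, adjusted p = 0.000461). Top2a, the topoisomerase that separates chromosomes, had 410.1, 456, 316, 367 and 367 CPM in BLPs, against 91.0, 53.5, 32.1, 44.1 and 33.7 CPM in HSCs (log2 change 3.22 ± 0.27, adjusted p = 7.09e-05). Cdk1, the mitotic kinase, had 131, 210.0, 151, 194 and 178 CPM in BLPs, against 94.4, 71.3, 54.5, 61.7 and 42.7 CPM in HSCs (log2 change 1.65 ± 0.29, adjusted p = 0.00479). Its partner gene Ccnb2, a B-type cyclin, had 204, 360.0, 462, 333 and 299 CPM in BLPs, against 136, 24.2, 54.0, 1.23 and 1.44 CPM in HSCs (log2 change 4.55 ± 1.11, adjusted p = 0.0214). The HSC libraries spread widely here, and the summed level of the mitosis genes was 2674 to 3883 CPM in BLPs, against 235 to 1281 CPM in HSCs, with mouse10360 highest. The Ccnb2 call was lost without mouse10361 (adjusted p = 0.0597) and without mouse10365 and mouse10384 (adjusted p = 0.117).

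Regulators of the G1 phase were more mixed, with 7 of 15 tested genes higher and 2 lower. With library totals as the only scaling 4 were higher and 3 lower, and without mouse10365 and mouse10384 4 were higher and 1 lower. Cdk6, a G1 kinase that sets how fast HSCs leave quiescence, had 2189, 2639, 2617, 2956 and 3530.1 CPM in BLPs, against 466, 428, 408, 545 and 432 CPM in HSCs (log2 change 2.81 ± 0.21, adjusted p = 4.21e-05). Ccnd3, the cyclin D that early B cells depend on, averaged 405 ± 219.8 CPM in BLPs and 80.5 ± 36.0 CPM in HSCs. The genes of the CDK inhibitors p21 and p57 changed in opposite directions. Cdkn1a, for p21, had 37.8, 151, 159, 66.9 and 71.4 CPM in BLPs, against 0.169, 0.672, 8.87, 6.15 and 12.4 CPM in HSCs (log2 change 4.80 ± 0.76, adjusted p = 0.00274). Cdkn1c, for p57, the inhibitor tied to HSC quiescence, had no count in BLPs and 22.2, 12.4, 69.9, 9.22 and 27.5 CPM in HSCs, at least 319-fold lower in BLPs, with an adjusted p of 0.00671 that became 0.0544 without mouse10365 and mouse10384.

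Most promoters of the mitosis genes held the CCAAT box. CCAAT, or ATTGG on the other strand, was in the 250 bases before the start in 21 of 23 promoters of 22 matched mitosis genes (91.3%) and in 18 of 28 promoters of the S phase genes (64.3%). It was in 35.5% of the promoters of all tested genes, in 40.2% of those of genes called higher and in 31.5% of those of genes called lower. The CHR letters TTTGAA, or TTCAAA on the other strand, which the cell cycle repressor complex DREAM can bind, were in 9 of the 23 mitosis promoters (39.1%) and in 10.8% of those of all tested genes. Neither motif was particular to lists that rose. The stem cell transcription regulators held CCAAT in 14 of 26 promoters (53.8%) and CHR in 3 (11.5%). The stem cell surface and niche genes held each in 5 of 18 (27.8%). The 3 promoters below belong to mitosis genes that rose and hold both motifs, which are in capitals and do not overlap. They lie at chr10:69352913-69353162 (Cdk1), chr9:70421555-70421804 (Ccnb2) and chr11:99024190-99024439 (Top2a), all on the minus strand of GRCm38.p6, and were taken from RefSeq.
Cdk1: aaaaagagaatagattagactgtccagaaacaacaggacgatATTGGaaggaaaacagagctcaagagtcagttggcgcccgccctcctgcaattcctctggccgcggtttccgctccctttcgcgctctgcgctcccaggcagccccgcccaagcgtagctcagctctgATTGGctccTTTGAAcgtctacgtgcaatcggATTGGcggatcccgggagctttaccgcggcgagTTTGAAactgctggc
Ccnb2: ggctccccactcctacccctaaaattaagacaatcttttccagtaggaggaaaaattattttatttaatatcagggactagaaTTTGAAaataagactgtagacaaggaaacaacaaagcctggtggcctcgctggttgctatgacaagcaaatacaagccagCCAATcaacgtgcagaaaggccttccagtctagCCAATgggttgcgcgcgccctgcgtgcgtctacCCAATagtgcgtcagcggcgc
Top2a: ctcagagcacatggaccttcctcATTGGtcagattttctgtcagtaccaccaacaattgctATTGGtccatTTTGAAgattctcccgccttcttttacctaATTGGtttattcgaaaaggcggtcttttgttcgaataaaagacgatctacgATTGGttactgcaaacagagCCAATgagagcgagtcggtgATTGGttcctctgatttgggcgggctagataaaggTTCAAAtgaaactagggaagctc
Matches of the CCAAT box begin 208, 80 and 48 bases before the start in Cdk1 and 87, 54 and 21 bases before it in Ccnb2, where they are evenly spaced. CHR matches begin 71 and 15 bases before the start in Cdk1, 167 in Ccnb2, and 179 and 23 in Top2a.

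**Figure D3:**
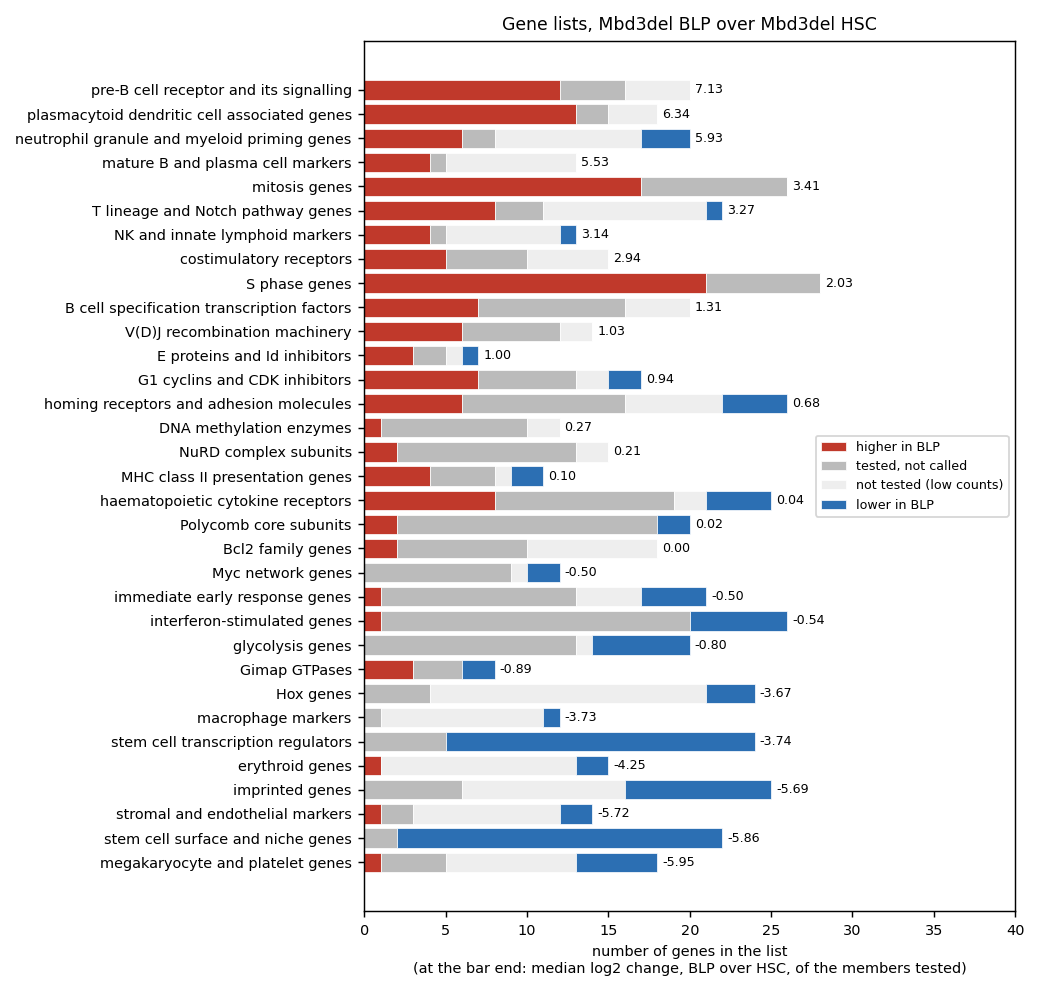
Number of genes in each of 33 lists (x axis) that were called higher in Mbd3del BLPs (red), tested and not called (grey), not tested for low counts (light grey) or called lower (blue), with the median log2 change of the tested members at the bar end. Lists run from the highest median, 7.13 for the pre-B cell receptor, to the lowest, -5.95 for megakaryocyte and platelet genes.

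Genes of MHC class II presentation changed in both directions, with 4 of 10 tested genes higher and 2 lower, or 3 higher and 1 lower without mouse10365 and mouse10384. H2-Ob, which encodes a chain of the peptide exchange inhibitor DO of B cells, had 292, 541, 614, 402 and 568 CPM in BLPs, against 9.27, 15.5, 14.4, 21.9 and 24.8 CPM in HSCs (log2 change 5.05 ± 0.27, adjusted p = 4.49e-06). The peptide exchange factor genes H2-DMa and H2-DMb2 (adjusted p = 0.0547 for H2-DMb2 without mouse10365 and mouse10384) rose with it, as did Ctss, a protease that trims the invariant chain, with 504 ± 143 CPM in BLPs and 63.2 ± 14.6 CPM in HSCs. Cd74, the invariant chain itself, averaged 168 ± 71.6 CPM in BLPs and 419 ± 167 CPM in HSCs (log2 change -1.17 ± 0.27, adjusted p = 0.0158). H2-Eb1, a chain of the presenting molecule, averaged 13.9 ± 9.55 CPM in BLPs and 49.5 ± 14.3 CPM in HSCs (log2 change -1.84 ± 0.53, adjusted p = 0.0399). Both calls of lower genes were lost when any of several single mice was left out, with adjusted p of 0.0539 to 0.0644 for Cd74 and 0.0828 to 0.115 for H2-Eb1.

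The Gimap genes, GTPases of lymphocyte survival in a cluster on chromosome 6, also changed in both directions, with 3 higher and 2 lower of 8. Gimap7 had 47.0, 62.0, 111, 69.6 and 71.9 CPM in BLPs, against 10.8, 0.336, 8.87, 15.8 and 5.94 CPM in HSCs (log2 change 3.63 ± 0.68, adjusted p = 0.00598). Its neighbour Gimap5 averaged 42.4 ± 14.4 CPM in BLPs and 128 ± 22.2 CPM in HSCs (log2 change -1.44 ± 0.27, adjusted p = 0.00573). Gimap4 and Gimap9 rose and Gimap1 fell. With library totals as the only scaling 4 Gimap genes fell, and without mouse10365 and mouse10384 none rose and 1 fell. The calls of Gimap4 and Gimap9 were also lost without single mice, mouse10365 and mouse10384 among them (adjusted p = 0.0614 to 0.0899).

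Among 25 receptors of haematopoietic cytokines, 8 of 23 tested rose and 4 fell, gate markers included, and 6 rose and 5 fell without mouse10365 and mouse10384. Il1r1 and Il10ra, receptors of interleukins 1 and 10, rose by 3.64 ± 0.73 and 6.20 ± 1.01 on the log2 scale, and Ifnar1, of type I interferons, by 1.83 ± 0.33. Il1r1 was not called without mouse10365 and mouse10384 (adjusted p = 0.109). Csf3r, described above, Kit and Tgfbr3 were among those that fell, and the Tgfbr3 call was lost without mouse10376 (adjusted p = 0.0580). Of 10 tested costimulatory receptors 5 rose and none fell, with 4 higher without mouse10365 and mouse10384. Among them was Cd69, an early activation and tissue retention marker, with 354 ± 116 CPM in BLPs and 12.9 ± 5.11 CPM in HSCs (log2 change 5.01 ± 0.49, adjusted p = 0.00016). Of 20 tested homing receptors and adhesion molecules 6 rose, 4 fell and 10 did not pass the test, and without mouse10365 and mouse10384 7 rose and 3 fell. Those that rose include Selplg, Itgal and Ccr7 of leukocytes, and those that fell are Esam, Jam2 and Jam3, junction molecules shared with endothelium (adjusted p = 0.0522 for Jam3 without mouse10365 and mouse10384), and Cd34, whose call was lost when any of 4 mice was left out (adjusted p = 0.0673 to 0.114).

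Imprinted genes, expressed from the allele of a single parent and many of them growth regulators, were lower wherever they were called. Of 25 such genes 15 were tested, 9 fell and none rose, with a median log2 change of -5.69, and 5 fell without mouse10365 and mouse10384. Members with almost no BLP counts, such as Grb10, Phlda2 and Snrpn, could pass the filter on low counts only through HSCs. Their direction was set by the filter, and they add to this count and median. Grb10, an adaptor that restrains growth factor signalling, had 0, 0, 0, 0 and 0.308 CPM in BLPs, against 78.4, 137, 208, 104 and 149 CPM in HSCs. With 2 counts in all BLP libraries, its level in HSCs was 2069.7 times that in BLPs (exact 95% counting interval 573 to 17097). Phlda2, also known from placental growth, averaged 0.0552 ± 0.0765 CPM in BLPs and 49.6 ± 14.9 CPM in HSCs. Snrpn, a splicing factor gene of the Prader-Willi region, had no count in BLPs and 7.20 to 31.3 CPM in HSCs, at least 213-fold lower in BLPs. Sgce, a sarcoglycan gene, kept 14.5 ± 10.4 CPM in BLPs, against 82.7 ± 16.6 CPM in HSCs.

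Of 24 Hox genes 7 passed the filter, 3 fell and none rose, against 9.02% of all tested genes that fell and 9.04% that rose. Hoxa9, which supports lymphoid and myeloid progenitors, had 39.7, 60.6, 61.9, 42.4 and 74.0 CPM in BLPs, against 252, 202, 237, 161 and 199 CPM in HSCs (log2 change -1.73 ± 0.26, adjusted p = 0.00214). Its neighbour Hoxa10 averaged 0.740 ± 0.687 CPM in BLPs and 54.0 ± 7.73 CPM in HSCs (log2 change -6.27 ± 0.82, adjusted p = 0.000938). Of 11 tested Myc network genes 2 fell and none rose, against 9.02% and 9.04% of all tested genes. Without mouse10365 and mouse10384 1 fell and 1 rose, against 4.74% and 5.07% of all tested genes. Mycn fell, with 4.55, 6.20, 7.91, 12.9 and 0 CPM in BLPs, against 183, 242, 565, 312 and 333 CPM in HSCs (log2 change -5.74 ± 0.72, adjusted p = 0.000764). Myc itself, with 177 to 579.7 CPM in BLPs and 347 to 563 CPM in HSCs, was not called. Of 19 tested glycolysis genes 6 fell and none rose, and 3 fell without mouse10365 and mouse10384. Aldoa, the aldolase of glycolysis, had 158, 257, 203, 226 and 185 CPM in BLPs, against 731, 742, 869.8, 800.4 and 915 CPM in HSCs (log2 change -1.79 ± 0.19, adjusted p = 0.000239).

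Interferon-stimulated genes held some of the most abundant transcripts that fell. Of 26 tested, 6 fell and 1 rose, against 9.02% of all tested genes that fell and 9.04% that rose. Ifitm1, an antiviral membrane protein high in stem cells, had 48.5, 78.1, 54.0, 192 and 125 CPM in BLPs, against 3329, 3209, 2383, 3067 and 2654 CPM in HSCs (log2 change -4.86 ± 0.37, adjusted p = 4.21e-05). Ifitm3, its neighbour on chromosome 7, averaged 134 ± 29.8 CPM in BLPs and 1427 ± 121 CPM in HSCs. The gene that rose, Bst2, is also on the plasmacytoid dendritic cell list. Of 17 tested immediate early genes 4 fell and 1 rose, against the same shares of all tested genes. Without mouse10365 and mouse10384, however, 1 fell and 1 rose, against 4.74% and 5.07% of all tested genes. Egr1 had 12.3, 21.7, 52.7, 37.6 and 6.48 CPM in BLPs, against 78.7, 87.4, 1161, 43.5 and 84.4 CPM in HSCs, and its adjusted p of 0.0154 became 0.0672 without mouse10365.

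Among subunits of NuRD other than Mbd3, 2 of 13 tested rose and none fell, against 9.04% of all tested genes that rose. Mta3, an MTA subunit known from germinal centre B cells, had 429, 437, 401, 425 and 340.5 CPM in BLPs, against 45.5, 24.9, 47.1, 21.5 and 43.2 CPM in HSCs (log2 change 3.74 ± 0.27, adjusted p = 2.84e-05). Rbbp4, a histone chaperone shared with other complexes, averaged 245 ± 44.6 CPM in BLPs and 100.1 ± 25.6 CPM in HSCs (log2 change 1.51 ± 0.25). Chd4, the remodelling ATPase, had a log2 change of -0.37 ± 0.30 and was not called, nor was Mbd2, the paralogue of Mbd3, at -0.10 ± 0.46. Of 20 Polycomb subunits 2 rose and 2 fell, shares near the 9.04% and 9.02% of all tested genes: Ezh2, the histone methyltransferase, rose by 1.80 ± 0.25 on the log2 scale and Suz12 by 0.94 ± 0.25, whereas Cbx7, a reader of the Polycomb mark linked to HSC self-renewal, averaged 5.51 ± 2.62 CPM in BLPs and 44.4 ± 25.5 CPM in HSCs, and Phc3 fell by 1.59 on the log2 scale. Suz12, Cbx7 and Phc3 were not called without mouse10365 and mouse10384 (adjusted p = 0.148, 0.0900 and 0.0836), and the calls of Suz12 and Phc3 were also lost without single mice (adjusted p = 0.0504 to 0.0940). Among 10 tested DNA methylation enzymes only Uhrf1 rose, which is also on the S phase list, a share near that of all tested genes, and 3 rose without mouse10365 and mouse10384. Of 10 tested Bcl2 family genes 2 rose and none fell, against 9.04% and 9.02% of all tested genes. Bcl2, the survival factor of lymphocytes, rose to 218 ± 54.4 CPM in BLPs, against 38.8 ± 20.7 CPM in HSCs (log2 change 2.79 ± 0.29, adjusted p = 0.000235). Bid was also called higher, but its call was lost without mouse10361, mouse10365 or mouse10384 (adjusted p = 0.0520 to 0.0833) and without the last 2 together (adjusted p = 0.130).

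By size alone, the genes furthest up were mostly surface receptors of leukocytes. Itgax, the integrin CD11c of dendritic cells, had 78.7, 24.2, 22.2, 32.3 and 33.3 CPM in BLPs and no count in HSCs, at least 345-fold higher in BLPs. Upb1, an enzyme of pyrimidine breakdown, had 95.8, 14.7, 21.2, 38.5 and 49.7 CPM in BLPs and no count in HSCs, at least 412-fold higher. Further receptors with no HSC count were Ctla4, an inhibitory receptor of T cells (at least 189-fold higher), Havcr1 (at least 195-fold), Gpr34 (at least 182-fold) and Klra1 (at least 214-fold). Klrd1, the CD94 chain of NK cell receptors, had 178, 101, 54.8, 113 and 93.3 CPM in BLPs, against 0.337, 0, 0, 0.205 and 0.180 CPM in HSCs. Adam2, Fcrla, Cd300c and Scin each had a single count in all HSC libraries.

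The genes furthest down were enzymes, receptors and matrix proteins. Dach1, a transcriptional corepressor, had no count in BLPs, against 83.3, 87.1, 93.5, 117 and 90.7 CPM in HSCs, at least 943-fold lower. Aldh1a1, which oxidises retinaldehyde to retinoic acid, had none in BLPs, against 96.4, 60.5, 83.1, 58.2 and 89.1 CPM in HSCs, at least 802-fold lower. Lhcgr, the receptor of luteinizing hormone, had 61.5, 233, 55.7, 89.4 and 39.4 CPM in HSCs and none in BLPs, at least 803-fold lower. Others with no BLP count were Arhgap29, Gstt1, Il4, Sdsl, Col4a1, Vipr2, Tinagl1 and Olfr632, at least 514-fold to 728-fold lower. Esam, the endothelial adhesion molecule that marks HSCs, was read once in all BLP libraries, against 4874 counts in HSCs.

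Among the most abundant transcripts that changed, H2afy, which encodes the histone variant macroH2A1, had 4405, 4065, 4352, 4478 and 4721 CPM in BLPs, against 667, 505, 799, 750.2 and 793 CPM in HSCs (log2 change 2.87 ± 0.18, adjusted p = 1.03e-05). The tetraspanin gene Cd53 had 1466 to 2536 CPM in BLPs, against 23.2 to 121 CPM in HSCs. Serpina3g, an intracellular protease inhibitor, had 0.455, 14.4, 0.772, 34.3 and 27.4 CPM in BLPs, against 1526, 1625, 1189, 2456 and 1166 CPM in HSCs (log2 change -7.31 ± 0.93, adjusted p = 0.000851). Adgrg1, the adhesion receptor GPR56, had 166, 272, 239, 146 and 169 CPM in BLPs, against 656, 565, 1819, 728 and 2138 CPM in HSCs, with mouse10365 and mouse10384 highest among HSCs.

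Among markers of other cells that the gates could hold, some had no count in BLPs and others were well detected. Each library is a pool, so whether the sorted cells or other cells carried these transcripts was not tested. Of 13 mature B and plasma cell markers 5 were tested and 4 rose, namely Cd37, Sdc1, Ighd and Fcrla, with a summed level of 621 to 948.5 CPM in BLPs and 355 to 770.3 CPM in HSCs. Fcer2a had no count in BLPs, and Cd22 was not high enough to test. Of 13 NK and innate lymphoid markers 6 were tested, 4 rose and 1, Rora, fell, with a summed level of 660.1 to 853 CPM in BLPs and 88.9 to 162 CPM in HSCs, while Eomes and Gzma had no count in BLPs. Without mouse10365 and mouse10384 3 rose and 1 fell. Nkg7 averaged 528 ± 118 CPM in BLPs and 40.2 ± 20.6 CPM in HSCs. Macrophage markers summed to 115 to 272 CPM in BLPs and 123 to 239 CPM in HSCs, and 6 of 12, among them Adgre1, Mertk and Siglec1, had no count in BLPs. Only 2 were tested, of which the iron exporter gene Slc40a1 fell, but not without mouse10365 and mouse10384 (adjusted p = 0.0665). The other, Cd68, was not called and averaged 165 CPM in BLPs and 170 CPM in HSCs. Stromal and endothelial markers summed to 156 to 312 CPM in BLPs and 195 to 324 CPM in HSCs. Among them Pecam1 rose and Vwf and Emcn fell, while Col1a2 and Cxcl12 had no count in BLPs and averaged 1.26 and 2.48 CPM in HSCs. The part of these cells in the results was not tested.

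For most genes called between the ends, the first step of the path was the largest. With the group means of the intermediate populations, the largest step (in log2(CPM + 1)) lay between HSC and LMPP for 597 of the 1018 genes called higher (58.6%), between LMPP and ALP for 245 (24.1%) and between ALP and BLP for 176 (17.3%). For the genes called lower these counts were 539 (53.1%), 327 (32.2%) and 150 (14.8%). In 692 of the higher and 714 of the lower genes both intermediate means lay between those of the ends. Since the genes were called on the ends, these counts are a description without a test. The titles of the LMPP samples call both genotypes Mbd3-floxed, while their column names tell them apart, and Mbd3 averaged 0.489 CPM in Mbd3del and 40.4 CPM in control LMPPs. Dntt averaged 25.1 CPM at the start, 1695 CPM in LMPPs, 6717 CPM in ALPs and 4082 CPM at the end, so that its highest mean was in ALPs. Mpo averaged 2.82, 932, 862 and 283 CPM in the same order and was highest in the middle of the path. Ebf1 averaged 0.323, 1.30, 48.3 and 157 CPM, and Igll1 0.135, 0.59, 3.73 and 85.9 CPM, with most of the gain in the last steps. Siglech stayed at 0.904 and 0.70 CPM in HSCs and LMPPs and reached 46.5 CPM in ALPs and 606 CPM in BLPs. On the way down, Aldh1a1 averaged 77.5 CPM in HSCs and had no count in LMPPs or ALPs, Mecom averaged 301, 29.97, 3.73 and 0.223 CPM, and Car2 stayed at 2193 and 2167 CPM in HSCs and LMPPs before 179.8 CPM in ALPs and 106 CPM in BLPs.

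**Figure D4:**
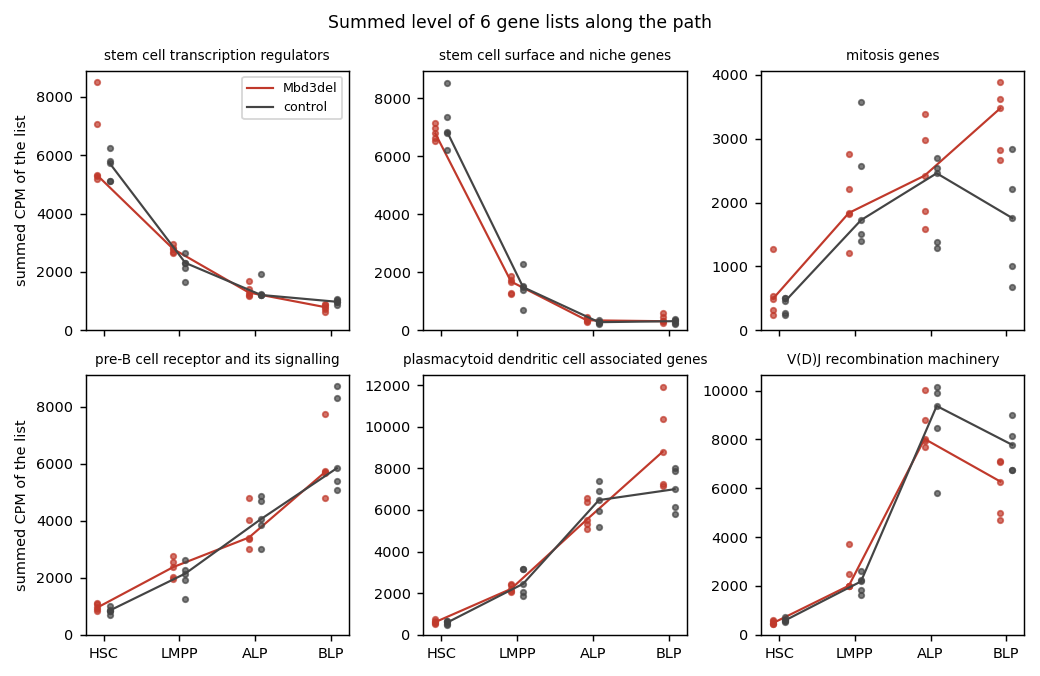
Summed CPM of 6 gene lists in every library of the populations HSC, LMPP, ALP and BLP, in Mbd3del mice (red) and control mice (dark grey), with lines through the group medians. In Mbd3del mice the medians of the stem cell lists are highest in HSCs, those of the pre-B cell receptor, plasmacytoid dendritic cell and mitosis lists are highest in BLPs, and that of the V(D)J list is highest in ALPs.

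The same comparison in the 5 control mice, which share no library with the one above, called 719 of 11195 genes higher (6.42%) and 923 lower (8.24%). Over 10747 genes tested in both genotypes, the log2 changes in Mbd3del and control mice had Pearson's r = 0.846 and Spearman's rho = 0.678, a description across genes, which are not independent replicates. Of 1893 genes called in Mbd3del mice, 1113 were called in the same direction in control mice and none in the opposite one, which is 58.8% of the calls in Mbd3del mice and 72.1% of the 1543 calls in control mice. The sign was the same for 98.05% of the genes called in Mbd3del mice, against 73.6% of all genes. Genes named above give examples. The log2 change of Dntt was 7.59 in Mbd3del and 8.16 in control mice, that of Rag1 9.05 and 8.96, that of Hlf -7.61 and -8.03, and that of Siglech 9.55 and 8.09. The list of mitosis genes had 17 genes higher in Mbd3del mice and 12 higher in control mice, and the S phase list 21 and 13, but no gene of either list was called in the test of the difference itself. The fitted difference, Mbd3del over control, was positive in 20 of 26 mitosis genes (median log2 0.74) and 22 of 28 S phase genes (median 0.68). It was positive in 5599 of the 11258 genes tested in Mbd3del mice (median -0.0047). Whether these lists differ between genotypes as sets was not tested.

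That test, over 12699 genes, called 1 gene (0.00787%). An unadjusted p under 0.05 was found for 672 genes, where 635 are expected if no change differs. The called gene was Cd63 (chromosome 10, 128900989 to 128912822, plus strand), a tetraspanin found in endosomes and in the granules of mast cells and platelets. In Mbd3del mice it had 40.8, 46.2, 79.5, 102 and 52.0 CPM in BLPs, against 582, 549, 583, 681 and 635 CPM in HSCs. In control mice it had 5.35 to 11.4 CPM in BLPs, against 443 to 554 CPM in HSCs. The BLP libraries of Mbd3del mice were all above those of control mice. Cd63 therefore fell in both, by 3.12 ± 0.25 on the log2 scale in Mbd3del mice and by 5.96 ± 0.29 in control mice, and the changes differed by 2.86 ± 0.35 (adjusted p = 0.0121). The call was lost when mouse10357, mouse10358, mouse10365, mouse10372 or mouse10376 was left out (adjusted p = 0.0527 to 0.0720) and under limma voom (adjusted p = 0.151). In the intermediate populations Cd63 averaged 266 CPM in LMPPs and 97.3 CPM in ALPs of Mbd3del mice, against 127 and 11.2 CPM in control mice.

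None of the 780 genes called between the ends in Mbd3del mice but not in control mice was called as different between genotypes, so no gene of these data is shown to change along the path in Mbd3del mice alone. Id2, for example, averaged 74.1 and 34.1 CPM in BLPs and HSCs of Mbd3del mice, against 28.1 and 37.1 CPM in control mice, with an adjusted p of 0.845 for the difference.

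**Figure D5:**
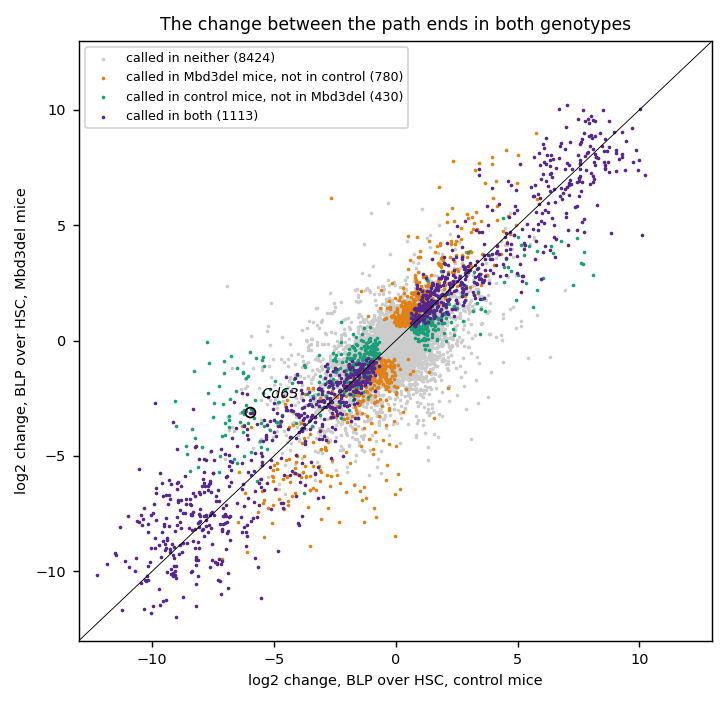
Log2 change, BLP over HSC, in control mice (x axis) and in Mbd3del mice (y axis) for 10747 genes tested in both, coloured by the genotype in which each was called. The 1113 genes called in both have the same sign in both, and Cd63 is circled above the diagonal at -5.96 and -3.12.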

How the data were processed

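RNA was measured by smart-seq2, which has no molecular identifiers and does not mark strand, in 40 libraries of 8 groups of 5 mice, of which the 10 Mbd3del BLP and HSC libraries form the comparison and the 10 control libraries of the same populations serve where named. The LMPP and ALP libraries of both genotypes serve for levels along the path and for the joint fit of all 40 libraries. The table deposited by the authors holds raw read counts for 49585 genes and 79325 repeat regions. The submitters' processing notes name STAR 2.5.2b, HTSeq 0.6.1p1 and the build GRCm38. The sources used here name no other settings. Repeat rows stayed out of library sizes and tests. Gene IDs were named through GENCODE M21, which matched 49326 of them.

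CPM values are counts scaled to a common total of gene counts per library. Differences were tested with edgeR 4.0.16 (R 4.3.3) by its quasi-likelihood test, with TMM scaling, edgeR's own filter on low counts (at least 10 counts, and 15 in total), the mouse as a block and Benjamini-Hochberg adjustment over all genes tested, and genes at an adjusted p under 0.05 were called. The standard error of a log2 change was taken as its size divided by the root of the F statistic. The difference between genotypes was tested in a joint model of 20 libraries. Labels tie the paired libraries to the same animal; the deviations of same-mouse libraries from their group means correlated at only -0.045 to 0.061. limma 3.58.1 and DESeq2 1.42.0 gave alternatives, and scripts ran in Python 3.11.15. The testing script was checked on simulated counts. Counting intervals are exact Poisson intervals at 95% and, like the floor of 3 counts over the libraries of a group, cover counting error only. Reads of overlapping genes, antisense genes and near-identical copies cannot be told apart.

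The genes named for size were, per direction, the 12 with the largest fold among called genes with at least 20 CPM in the higher group and no overlap between groups, leaving out gate markers, unnamed gene models and immunoglobulin segments, and the 6 most abundant with at least 4-fold change. Other genes are members of 34 gene lists, or differ between genotypes. Members and lists were chosen with earlier results of these data known.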

Additional observations from a re-analysis of the deposited data

Results flagged for a closer look

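Of 75 groups of 5 values of named genes and of library measures, 5 held a library far from the other 4, all of them of named genes, where chance flags about 1 in 20 groups. In BLPs all such values were of mouse10360. Siglech had 1146 CPM there, against 361 to 554 CPM in the other BLP libraries. Itgax had 78.7 CPM, against 22.2 to 33.3 CPM, and Fcrla had 91.4 CPM, against 43.0 to 47.3 CPM. In HSCs, Cd53 had 121 CPM in mouse10360, against 23.2 to 42.3 CPM in the other mice, and Lhcgr had 233 CPM in mouse10361, against 39.4 to 89.4 CPM. The log2 change of Cd63 between BLPs and HSCs differed between Mbd3del and control mice by 2.86 ± 0.35 in the test of the difference, with BLP levels of 40.8 to 102 CPM in Mbd3del mice and 5.35 to 11.4 CPM in control mice.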

How the results depend on the processing

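Without the block for the mouse, that is, with no pairing, 2174 genes were called in place of 2034, and 1876 of the 2034 were among them. The count was 2019 with DESeq2's size factors in edgeR, 2276 with no expression filter, 1737 with a minimum count of 50, 2522 with limma voom and 2364 in a joint fit of all 40 libraries. DESeq2 called 3352, of which 1861 were lower, and edgeR's newer estimator called 1547 lower. A test for changes beyond 2-fold called 1048, with 484 higher and 564 lower. Leaving out each mouse in turn gave 1408 to 1546 calls. Leaving out mouse10365 and mouse10384, chosen after seeing the data, gave 1107 calls, 572 higher and 535 lower, with 3 pairs in place of 5. Of 226 called list members, 181 stayed called whichever single mouse was left out. Without both of these mice 167 stayed called, and in no alternative run did a called member change sign. Among the genes named for size, only Gpr34 lost its call, without both mice (log2 change 9.25, adjusted p = 0.0557), and 2 were not tested at a minimum count of 50. For the difference between genotypes, 1 gene was called, against 6 with no replicate block, 10 with no expression filter and 77 with DESeq2, 0 to 3 when each mouse was left out in turn, and 5 without mouse10365 and mouse10384. Where leaving out a mouse gave 0 calls, Cd63 had an adjusted p of 0.0527 to 0.0720. The causes of these shifts were not tested. The comparison in control mice was run with the main settings.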
